A study of Danio rerio with 6 samples.

Results

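The Smads are the proteins that carry TGF-beta family signals into the nucleus, and 8 zebrafish genes that encode them were followed here among the 32266 genes of the deposited tables. They are smad4a and smad4b, which encode the common Smads or co-Smads, smad1 and smad5, the receptor-regulated Smads (R-Smads) of the BMP pathway, smad2, smad3a and smad3b, the R-Smads of the Nodal pathway, and smad7, an inhibitory Smad. They were chosen by gene identity, with earlier results of these data already known. The libraries came from pools of 25 whole embryos of the Tubingen (TU) strain, homogenized at 50% epiboly, when gastrulation begins. MZsmad4a embryos (3 libraries) lacked both maternal and zygotic smad4a, since both parents carried a short CRISPR/Cas9 deletion that shifts the reading frame in the linker between the Smad domains, and WT embryos (3 libraries) carried no such allele. MZsmad4a and WT embryos came from separate crosses, so genotype and parentage cannot be told apart. The comparison asks how the Smad pool was composed once the main co-Smad was lost, and which of its members changed in level.

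Ligands of the family bind paired type I and type II receptors at the cell surface. The activated type I receptor phosphorylates an R-Smad, which can join with Smad4 and enter the nucleus to regulate target genes. BMP ligands act through Smad1, Smad5 and Smad9 and pattern the ventral side of the fish embryo. Nodal ligands act through Smad2 and Smad3 at the blastoderm margin, where they induce mesoderm and endoderm. The inhibitory Smads, Smad6 and Smad7, block activated receptors or recruit ubiquitin ligases to them, and in many vertebrate cells they are themselves targets of the signal.

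Each library held between 18138714 and 19900859 expected counts in MZsmad4a embryos and between 9807865 and 20833491 in WT embryos, the lowest of all being WT replicate 1. All 8 genes passed the filter on low counts, and their expected counts were whole numbers in each of the 6 libraries. Markers of the blastoderm margin, the ventral side, the enveloping layer and germ cells were detected. Summed over the list, ventral markers reached 250.6 to 293.2 CPM (expected counts scaled to the size of the library) in MZsmad4a embryos and 548.8 to 613.4 CPM in WT embryos, and 2 of the 4 fell, ved (log2 change −2.03, adjusted p = 0.00475 by edgeR's quasi-likelihood test) and eve1 (−1.80, adjusted p = 0.000686). The call on ved was kept in only 2 of the 6 fits that each left out a library, and was lost without MZsmad4a replicate 2 (adjusted p = 0.0287) or any one WT replicate (0.0101 to 0.0251). Margin markers summed to 884.4 to 1159 CPM in MZsmad4a and 1356 to 1628 CPM in WT embryos. All 5 had estimates below 0, between −0.62 and −0.21 with a list median of −0.51, though none was past the threshold. Enveloping layer markers summed to 6223 to 7023 CPM in MZsmad4a and 5595 to 6264 CPM in WT embryos. Germ cell markers summed to 265.5 to 316.8 and 220.0 to 278.9 CPM. None of the 5 genes in either of these lists was past the threshold. Yolk syncytial layer markers summed to 174.8 to 236.2 CPM in MZsmad4a and 135.8 to 193.7 CPM in WT embryos, nearly all of it SLC26A1 (194.8 CPM in MZsmad4a and 155.5 CPM in WT embryos), and none of the 3 tested was past the threshold. The list median was −0.66, and mxtx2, a regulator of yolk syncytial layer formation named here after its values were seen, had 0.306 ± 0.18 CPM in MZsmad4a and 2.28 ± 0.866 CPM in WT embryos without overlap (−2.88, adjusted p = 0.0286 by edgeR and 0.000419 by DESeq2). Genes of later tissues stayed at 1.58 to 3.97 CPM in MZsmad4a and 1.05 to 2.83 CPM in WT embryos, with the globin gene hbae1.1 at 0 in each library.

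Of the 8 Smad genes, 3 were lower in MZsmad4a embryos at an adjusted p under 0.01, namely smad4a, smad1 and smad7, and 0 were higher. As the mutated gene, smad4a checks the labels and is no result about the family. Besides it, the called members were smad1 and smad7. The count of lower genes was 1, smad4a, without WT replicate 1, WT replicate 2 or MZsmad4a replicate 2, was 2 without MZsmad4a replicate 1 or 3, and was 3 without WT replicate 3. Over all 15720 genes tested, 0.49% were lower and 0.223% were higher at that threshold with all 6 libraries. Leaving out a library shortened the whole list of lower genes as well. The 77 lower genes became 23, 25 and 41 without WT replicate 1, 2 and 3. They became 47, 16 and 28 without MZsmad4a replicate 1, 2 and 3. No member had a positive change at an unadjusted p under 0.05 either. Of the 24986 genes with any count, whether or not it gave them an adjusted p, DESeq2 called 1.37% lower and 1.26% higher. It called 3 members lower and 0 higher. The median log2 change of the 8 genes was −0.45, beside −0.01 over all genes tested. It includes the −2.05 of the mutated smad4a, and no median without smad4a was computed. Scaling to the library total alone moved the median of all genes to −0.11 and left 105 genes lower and 24 higher, where the trimmed mean of M values (TMM) used here left 77 lower and 35 higher. The CPM values of MZsmad4a and WT embryos did not overlap for 5 of the 8 genes, smad4a among them, all lower in MZsmad4a. Of all tested genes, 11.9% were separated in that direction and 11.8% in the other. The plot of change by gene gives all of these with their intervals.

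**Figure D1:**
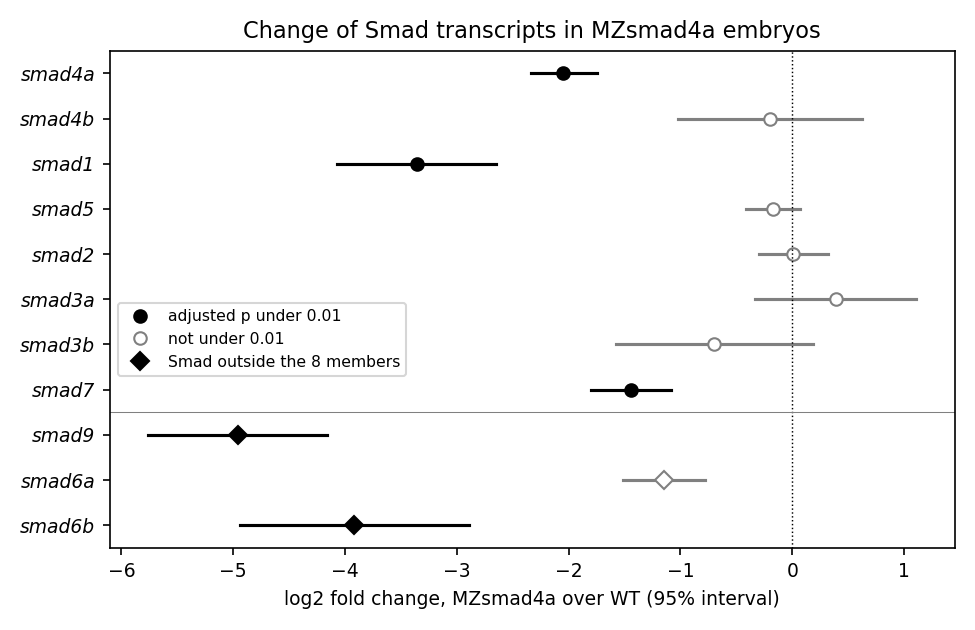
Log2 fold change of each Smad gene, MZsmad4a over WT, on the horizontal axis, from edgeR on 3 libraries of each genotype. Points are estimates and bars are 95% intervals, circles mark the 8 followed genes, diamonds mark smad9, smad6a and smad6b and filled symbols mark an adjusted p under 0.01, and the intervals of smad4a (−2.34 to −1.75), smad1 (−4.07 to −2.65) and smad7 (−1.80 to −1.08) lie wholly below 0 while those of smad5 and smad2 span it.

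smad4a (ENSDARG00000075226), the mutated gene, checks the labels first. It had 13.1, 15.3 and 14.6 CPM in MZsmad4a embryos, against 54.6, 62.2 and 60.7 CPM in WT embryos. Every MZsmad4a library lay far below every WT library, and the libraries of one genotype lay close together. The log2 change was −2.05 ± 0.13 (SE, n = 3 each), with an adjusted p of 0.000546 by edgeR, which left 24.2% of the WT level (95% interval 19.7 to 29.7%). The call held whichever library was left out, with changes between −2.10 and −1.99. The transcript was thus still measured, at 227, 277 and 278 expected counts in MZsmad4a embryos, against 580, 1306 and 1113 in WT embryos. Gene-level counts cover the whole transcript and cannot show the deletion itself, so the check rests on the level alone.

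smad4b (ENSDARG00000012649), the other copy of the co-Smad gene, stood at a low level in both genotypes. MZsmad4a embryos had 2.02, 1.71 and 3.94 CPM, from 35, 31 and 75 expected counts, and WT embryos had 3.11, 3.05 and 2.67 CPM, from 33, 64 and 49 expected counts. MZsmad4a replicate 3 was the highest of all 6 libraries and the other MZsmad4a libraries were the lowest, so the genotypes overlapped. The change was not past the threshold (−0.20 ± 0.36, adjusted p = 0.826 by edgeR), and its 95% interval of −1.02 to 0.62 leaves room for a change in either direction. Its sign rested on single libraries, at 0.02 without MZsmad4a replicate 2 and −0.66 without MZsmad4a replicate 3. The annotation used by the study splits this gene into 2 transcripts, and the mean transcript length that RSEM assigned to it ranged between 1713 and 1870 bases in MZsmad4a and between 1477 and 1870 bases in WT libraries.

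smad1 (ENSDARG00000027199), a BMP R-Smad, fell with the largest estimated change of the 8 genes. It had 0.692, 1.05 and 1.58 CPM in MZsmad4a embryos, against 12.5, 11.9 and 9.98 CPM in WT embryos, from 12, 19 and 30 and from 133, 250 and 183 expected counts. All MZsmad4a values were above the level that 3 counts would give, 0.151 to 0.165 CPM in these libraries before TMM scaling, so the transcript remained detectable. The log2 change was −3.36 ± 0.31 (adjusted p = 0.00212 by edgeR), or 10.3-fold lower with a 95% interval of 6.28 to 16.8. With one library left out the change stayed between −3.71 and −3.12, while the adjusted p by edgeR passed 0.01 in 3 of 6 such fits and missed it without WT replicate 1 (0.0113), WT replicate 2 (0.0159) or MZsmad4a replicate 2 (0.0179). The fall stands beside the lower ventral markers given above, and their part in it was not tested. In whole embryos, fewer cells that express a gene and less of its RNA in each cell cannot be told apart.

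smad5 (ENSDARG00000037238), the other BMP R-Smad, was the most abundant transcript of the 8 followed genes. It had 174.4, 219.0 and 216.3 CPM in MZsmad4a embryos, against 222.9, 239.8 and 223.0 CPM in WT embryos. The highest MZsmad4a library lay just under the lowest WT library, and MZsmad4a replicate 1 stood apart below. The change did not pass the threshold (−0.17 ± 0.10, adjusted p = 0.47 by edgeR), and the 95% interval put the MZsmad4a level at 75.3 to 105% of WT. With 3027 to 4120 expected counts in MZsmad4a and 2366 to 5031 in WT libraries, it had the smallest SE of the 8 genes.

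Among the Nodal R-Smads no change passed the threshold. smad2 (ENSDARG00000006389), the main transducer of Nodal in the early fish embryo, had 38.8, 36.4 and 39.2 CPM in MZsmad4a embryos, against 34.0, 43.9 and 35.5 CPM in WT embryos. The MZsmad4a values fell inside the WT range, and the change of 0.01 ± 0.13 (adjusted p = 0.985 by edgeR) had a 95% interval that places the MZsmad4a level at 81.2 to 125% of WT. Its sign was not stable, at −0.09 with library size alone, −0.11 on log2(TPM + 1) and −0.05 to 0.13 with one library left out. On the TPM scale, which divides by transcript length and is set within each library, smad2 had 17.00, 16.46 and 17.11 TPM in MZsmad4a embryos, against 17.21, 20.26 and 17.58 TPM in WT embryos, so the values that overlapped as CPM were just separated as TPM.

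smad3a (ENSDARG00000036096) varied more between libraries of one genotype than between genotypes. It had 9.39, 5.35 and 11.3 CPM in MZsmad4a embryos, against 6.22, 8.48 and 5.12 CPM in WT embryos, a change of 0.39 ± 0.31 (adjusted p = 0.589 by edgeR, 95% interval −0.33 to 1.11). MZsmad4a replicate 2 sat among the WT libraries. smad3b (ENSDARG00000010207) was close to the limit of detection, with 7, 9 and 8 expected counts in MZsmad4a embryos and 7, 14 and 15 in WT embryos. As CPM these were 0.403, 0.496 and 0.42 in MZsmad4a, against 0.659, 0.667 and 0.818 in WT embryos. The values did not overlap, yet the change of −0.70 ± 0.38 did not pass the test (adjusted p = 0.407 by edgeR), and its interval ran between −1.58 and 0.19. With so few counts a direction was not detectable at this depth.

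smad7 (ENSDARG00000016858), which blocks both BMP and Nodal receptors in vertebrates, fell in MZsmad4a embryos. It had 10.4, 10.2 and 12.7 CPM in MZsmad4a embryos, against 31.9, 31.5 and 27.0 CPM in WT embryos. All MZsmad4a libraries were below all WT libraries, with 180, 185 and 241 expected counts in MZsmad4a embryos and 339, 660 and 496 in WT embryos. The log2 change was −1.44 ± 0.16 (adjusted p = 0.00475 by edgeR), or 2.72-fold lower with a 95% interval of 2.11 to 3.49. Leaving out one library kept the change between −1.55 and −1.39, but the adjusted p by edgeR stayed under 0.01 in only 1 of these 6 fits, the one without WT replicate 3 (0.0094). It reached 0.0207 without WT replicate 1, 0.0251 without WT replicate 2, and 0.0148, 0.0296 and 0.0130 without MZsmad4a replicates 1, 2 and 3.

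Levels of different genes can be set beside each other only per length, and the plot of TPM by library does so.

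**Figure D2:**
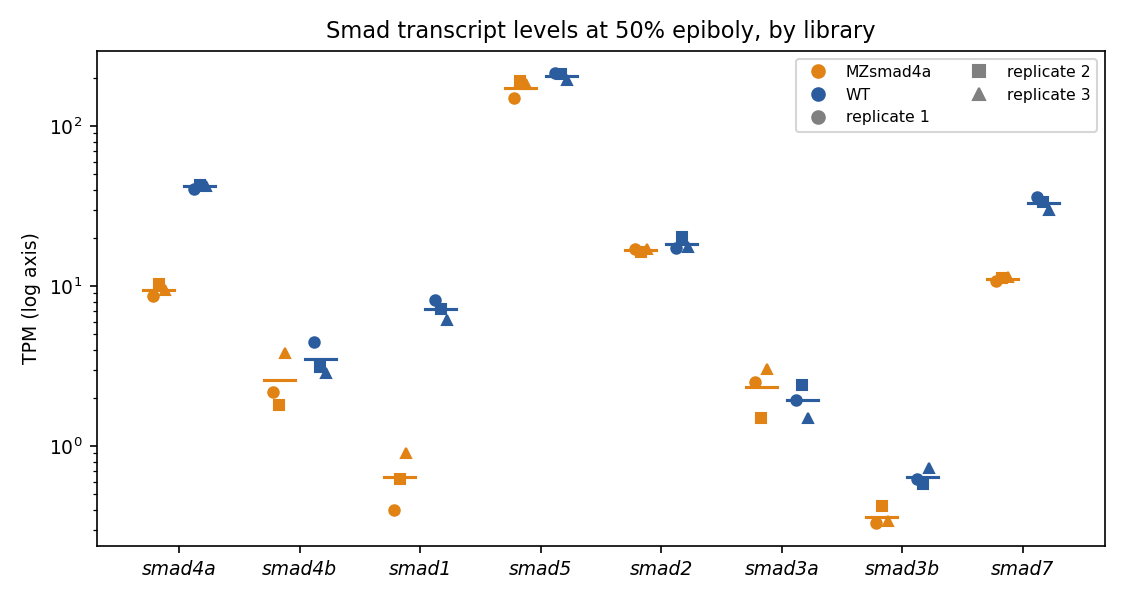
TPM of the 8 Smad genes on a log axis, 1 point for each library, with a short line at the mean and MZsmad4a to the left of WT for each gene. smad5 stands above the rest in both genotypes, the MZsmad4a points of smad4a, smad1 and smad7 lie well under the WT points, and those of smad3b lie under them by a smaller gap.

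In MZsmad4a embryos the order by mean TPM was smad5 (174.3 ± 22.3, SD, n = 3), smad2 (16.9 ± 0.348), smad7 (11.1 ± 0.315), smad4a (9.43 ± 0.81), smad4b (2.60 ± 1.07), smad3a (2.35 ± 0.79), smad1 (0.64 ± 0.251) and smad3b (0.363 ± 0.0493). Of the neighbours in this order, smad4b and smad3a overlapped, with smad4b above in 2 of 3 libraries, and smad1 and smad3b overlapped over libraries although smad1 was above in each of the 3. In WT embryos the order was smad5 (205.9 ± 11 TPM, SD, n = 3), smad4a (42.0 ± 1.05), smad7 (33.1 ± 3.09), smad2 (18.3 ± 1.66), smad1 (7.19 ± 1.05), smad4b (3.49 ± 0.887), smad3a (1.94 ± 0.46) and smad3b (0.643 ± 0.0777), and no neighbours overlapped. smad4a thus stood behind smad2 and smad7 in MZsmad4a embryos, where in WT embryos it stood ahead of both. Among all listed genes, mean TPM placed smad5 at the 97.2 percentile in MZsmad4a and the 97.6 percentile in WT embryos, and smad1 at 52.3 and 71.9.

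The 8 genes together amounted to 217.7 ± 23.4 TPM in MZsmad4a embryos and 312.6 ± 15.8 TPM in WT embryos (SD, n = 3 each), with ranges of 190.8 to 233.3 and 294.4 to 323.1. Most of this was smad5, at 80.0 ± 1.91% of the sum in MZsmad4a and 65.9 ± 0.331% in WT embryos. The co-Smads made up 5.53 ± 0.323% in MZsmad4a and 14.6 ± 0.747% in WT embryos, and the inhibitory smad7 made up 5.14 ± 0.449% and 10.6 ± 0.492%. In MZsmad4a embryos the co-Smad share includes smad4a transcript with the frameshift, so it is a share of RNA and not of working co-Smad. The BMP R-Smads took a larger share in MZsmad4a embryos, 80.3 ± 1.94% beside 68.2 ± 0.559% in WT embryos. Yet their summed level was lower in MZsmad4a embryos, without overlap (175.0 ± 22.5 and 213.1 ± 12.0 TPM). The sum was 149.4, 191.7 and 183.9 TPM in MZsmad4a libraries and 222.3, 217.5 and 199.5 TPM in WT libraries. Nearly all of it was smad5, whose change was not past the threshold (−0.17, adjusted p = 0.47 by edgeR). The TPM scale itself ran lower in MZsmad4a embryos, with a median change over all tested genes of −0.09 on log2(TPM + 1) and −0.11 on log2(TPM + 0.1). As CPM, 11.9% of all tested genes were separated in this direction, so the gap is no call on the BMP R-Smads. The Nodal R-Smads took 9.08 ± 1.27% in MZsmad4a and 6.70 ± 0.574% in WT embryos, at summed levels of 19.6 ± 1.09 and 20.9 ± 2.0 TPM. Shares sum to the whole, so a role that falls raises the others. None of the 4 shares overlapped between genotypes, and no test was made on them since they are sums over genes chosen for study.

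**Figure D3:**
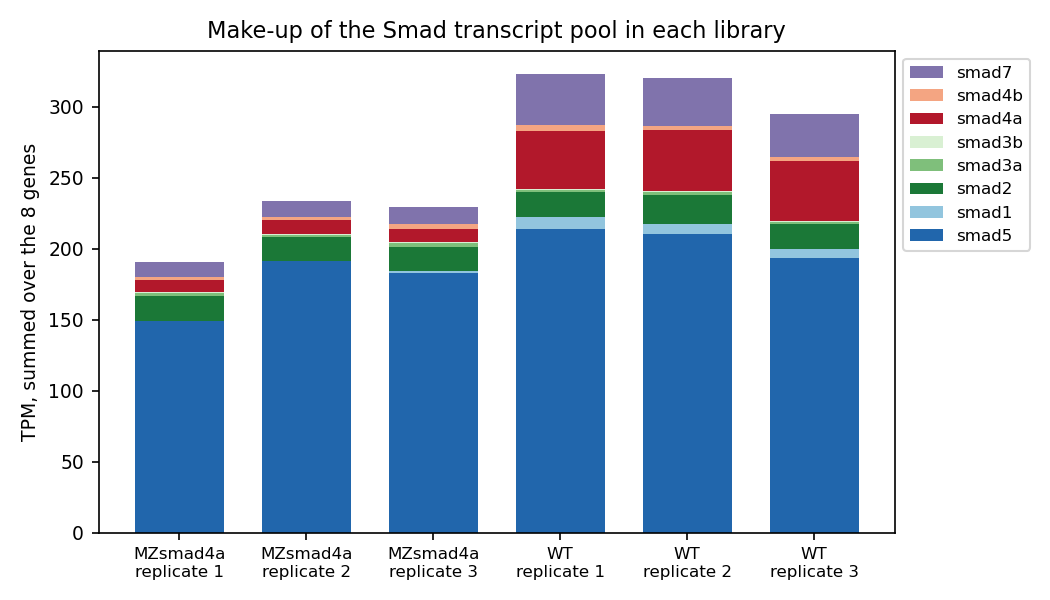
Stacked TPM of the 8 Smad genes in each of the 6 libraries, MZsmad4a libraries to the left and WT libraries to the right. The bars total 190.8 to 233.3 TPM in MZsmad4a and 294.4 to 323.1 TPM in WT embryos, and the smad4a, smad7 and smad1 segments are thinner in MZsmad4a.

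Ratios within a library do not depend on scaling between libraries. Summed over smad1, smad5, smad2, smad3a and smad3b, without smad9, R-Smad transcripts outnumbered co-Smad transcripts in both genotypes. The ratio was 15.7, 17.4 and 15.5 to 1 in MZsmad4a embryos, against 5.35, 5.27 and 4.83 to 1 in WT embryos. In MZsmad4a embryos the smad4a transcript counted here carries the frameshift. These ratios therefore measure RNA and not working co-Smad. For the BMP branch alone, smad5 exceeded smad4a by 17.3, 18.7 and 19.4 times in MZsmad4a and by 5.26, 4.94 and 4.55 times in WT embryos. For the Nodal branch, smad4a stood at 0.507, 0.622 and 0.551 of the smad2 level in MZsmad4a embryos, and at 2.37, 2.10 and 2.42 times smad2 in WT embryos. The smad4a transcript was thus the scarcer of that pair in each MZsmad4a library and the more plentiful in each WT library. The inhibitory smad7 amounted to 6.37, 5.33 and 5.58% of the same R-Smad sum in MZsmad4a embryos, against 14.8, 14.0 and 13.6% in WT embryos.

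The smad4b copy made up 20.1, 15.0 and 28.8% of co-Smad TPM in MZsmad4a embryos, against 9.95, 6.81 and 6.28% in WT embryos. Its level was 2.60 ± 1.07 TPM in MZsmad4a and 3.49 ± 0.887 TPM in WT embryos. The rest of co-Smad TPM in MZsmad4a embryos was smad4a transcript with the frameshift. Of the sum of smad1 and smad5, smad1 made up 0.268, 0.324 and 0.489% in MZsmad4a embryos, against 3.71, 3.30 and 3.08% in WT embryos. The BMP R-Smad smad9, left out of this sum, had 0.22 TPM in MZsmad4a and 7.84 TPM in WT embryos. smad5 therefore carried nearly all transcript of the smad1 and smad5 pair in both genotypes. smad2 held 85.6, 89.6 and 83.5% of the Nodal R-Smad sum in MZsmad4a embryos, against 87.1, 87.1 and 88.8% in WT embryos, and here the genotypes overlapped.

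Whether genes that share a role changed by different amounts was asked of 5 pairs, as the difference of their log2 CPM in each library. The MZsmad4a minus WT value of this difference was −3.13 on the log2 scale for smad1 relative to smad5. It was −1.76 for smad4a, the mutated gene, relative to smad4b. It was −0.60 for smad3b relative to smad2, 0.33 for smad3a relative to smad2 and 0.93 for smad3a relative to smad3b. Differences did not overlap between genotypes for 3 of the 5 pairs, those of smad1 with smad5, smad4a with smad4b and smad3b with smad2. For each of these 3 the exact two-sided permutation p was 0.1, the smallest that 3 libraries against 3 can give, or 0.167 after Benjamini-Hochberg adjustment over the 5 pairs. No pair could therefore pass a threshold of 0.05. Among single genes, 11.9% of all tested were separated lower in MZsmad4a and 11.8% higher, and no such share was computed over pairs. The smad3b and smad2 pair rests on 7, 9 and 8 smad3b counts in MZsmad4a and 7, 14 and 15 in WT libraries. On log2(TPM + 1) its value was −0.16, with an exact permutation p of 0.2. For smad3a the exact permutation p was 0.3 against smad2 and 0.2 against smad3b (0.3 and 0.25 adjusted).

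**Figure D4:**
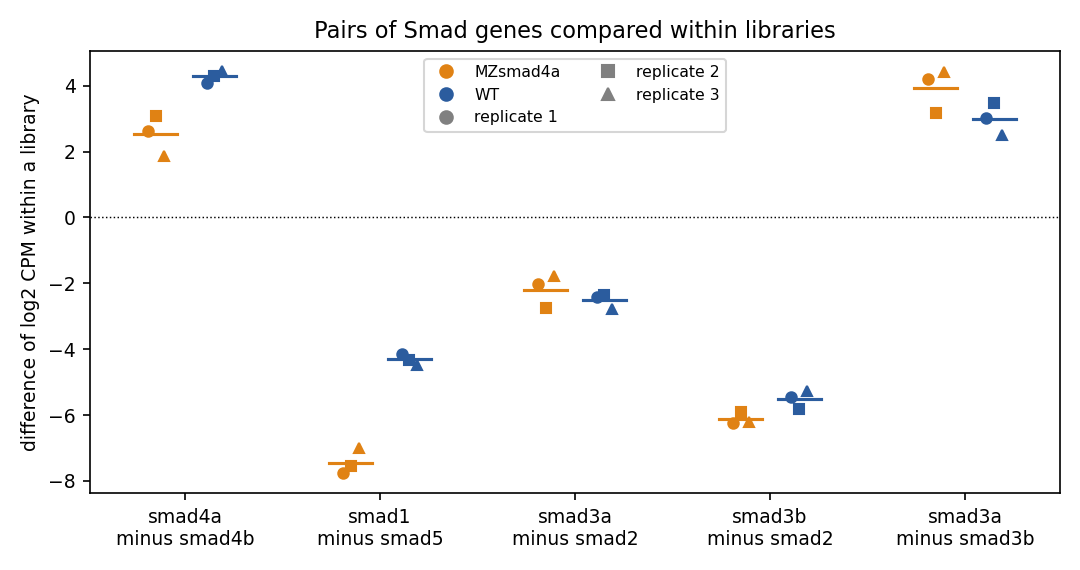
Difference of log2 CPM between the genes of each of 5 pairs, 1 point for each library and a short line at the mean, MZsmad4a to the left of WT. The smad1 minus smad5 and smad4a minus smad4b points of MZsmad4a lie below all WT points, by −3.13 and −1.76 on average, while the smad3a minus smad2 points overlap.

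Of 3 further Smads, which belong to the BMP and inhibitory branches, 2 fell in MZsmad4a embryos at an adjusted p under 0.01 by edgeR. Over all genes tested, 0.49% were lower at that threshold. smad9, the remaining BMP R-Smad, had 4, 3 and 7 expected counts in MZsmad4a embryos, against 103, 169 and 125 in WT embryos, which is 0.255 ± 0.103 CPM beside 8.19 ± 1.45 CPM (SD, n = 3 each). Its change was −4.96 ± 0.35 (adjusted p = 0.000683 by edgeR), beside −3.36 for smad1, and the call held in all 6 fits with one library left out. smad6b, an inhibitory Smad, had 3, 4 and 6 expected counts in MZsmad4a and 51, 85 and 42 in WT embryos, a change of −3.92 ± 0.44 (adjusted p = 0.00523 by edgeR). That call was kept only without WT replicate 3 and lost when any other single library was left out, at adjusted p values of 0.0162 to 0.0334. For both smad9 and smad6b the MZsmad4a counts lay at or near 3, the level taken as the limit of detection. smad6a, its duplicate, had 12.2 ± 1.66 CPM in MZsmad4a and 27.1 ± 1.52 CPM in WT embryos, without overlap. It just missed the threshold in edgeR (−1.15 ± 0.16, adjusted p = 0.0104) and passed it in DESeq2 (adjusted p = 4.24e-08).

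Some of these genes lie side by side in the genome. In the RefSeq annotation of the GRCz12tu assembly, smad3a is the neighbour of smad6a, and smad3b is the neighbour of smad6b, so each pair joins a Nodal R-Smad to an inhibitory Smad. The change was 0.39 for smad3a and −1.15 for smad6a, and −0.70 for smad3b and −3.92 for smad6b. smad2 and smad9 are on the same chromosome as smad4a.

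Genes that act on Smad proteins were counted in 5 lists, with 49 gene identifiers matched and 43 tested. None passed an adjusted p of 0.01 by edgeR, and their median log2 change was 0.05. An unadjusted p under 0.05 was reached by 9 of the 43, or 20.9%, beside 17.5% of all genes tested. DESeq2 called 2.63% of the 24986 genes with any count. That base includes genes removed by the low-count filter, which all of the 43 had passed, so the shares are not on like sets. Among the 43 it called 3, or 6.98%. These 3, named after their values were seen, were bambia, the Smad co-repressor SKI (0.70, adjusted p = 0.0332 by edgeR and 0.000482 by DESeq2) and the phosphatase gene ppm1aa (−0.66, adjusted p = 0.0326 by edgeR and 0.000733 by DESeq2). Among 7 tested partners and co-activators the median change was 0.02, and the most abundant was foxh1, the forkhead partner of Smad2 in Nodal responses, at 278.8 ± 37.6 CPM in MZsmad4a and 336.5 ± 14.9 CPM in WT embryos (−0.27, adjusted p = 0.247). Among 8 co-repressors the median was 0.13, and the most abundant was the histone deacetylase HDAC1 (0.12, adjusted p = 0.453). Among 10 genes of Smad ubiquitination and dephosphorylation the median was 0.06, and the most abundant was TRIM33, also known as an R-Smad partner (0.15, adjusted p = 0.51).

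The 14 tested type I and type II receptors had a median change of 0.03, within a range of −1.23 to 1.01. The most abundant was acvr1l, a type I BMP receptor whose loss dorsalizes fish embryos, at 460.5 ± 20.4 CPM in MZsmad4a and 419.5 ± 13.4 CPM in WT embryos (0.13, adjusted p = 0.394 by edgeR). Among the 4 tested membrane anchors and decoys the median change was −0.40, and the most abundant was bambia, a pseudoreceptor that lacks the kinase domain and dampens signaling. It had 74.3 ± 33.5 CPM in MZsmad4a and 245.3 ± 6.12 CPM in WT embryos, a change of −1.72 ± 0.30 that missed the threshold in edgeR (adjusted p = 0.0255) and passed it in DESeq2 (adjusted p = 5.18e-07). Its MZsmad4a libraries were spread over 45.94, 97.07 and 124.57 TPM, and without MZsmad4a replicate 1, the lowest, the adjusted p was 0.00469.

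The genes with profiles most like those of the 3 Smads that fell were ranked by the root-mean-square difference of centred log2 CPM over the 6 libraries. Nearest to smad4a were drll.3 at a distance of 0.13, si:dkeyp-59c12.1 at 0.13 and the ventral homeobox gene eve1 at 0.14. Of these si:dkeyp-59c12.1 was measured at only 0.0735 CPM in MZsmad4a and 0.597 CPM in WT embryos. Nearest to smad1 were smad6b at 0.26, jph3a at 0.28 and a gene named FOXJ1, a forkhead factor of ciliated cells, at 0.29. Nearest to smad7 were CISD1 at 0.10, cxcr3.3 at 0.11 and COASY at 0.11, with changes of −1.33, −1.39 and −1.32 beside −1.44 for smad7. By its construction the distance is small wherever genes change by like amounts on that scale. A small count is added before the log, which shrinks changes of genes with few counts. In edgeR si:dkeyp-59c12.1 changed by −2.91 (adjusted p = 0.032), beside −2.05 for smad4a. The genes smad6b, jph3a and FOXJ1 changed by −3.92, −3.64 and −4.09, beside −3.36 for smad1. They had only 0.236, 0.325 and 0.274 CPM in MZsmad4a embryos, and jph3a missed the threshold (adjusted p = 0.0105 by edgeR).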

How the data were processed

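RNA was extracted with TRIzol from pools of 25 embryos, with 3 biological replicates a genotype, and sequenced as paired-end poly(A) libraries. The authors trimmed reads with cutadapt, aligned them with STAR to GRCz11 with Ensembl release 95 and quantified genes with RSEM, and bcl2fastq 2.20.0 is named in their processing notes. They deposited expected counts, TPM and FPKM for each gene and library; FPKM was not used here. RSEM divides reads that fit several genes, and TPM is bound to sum to a constant, so a fall in some genes raises others.

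Expected counts were rounded and tested with edgeR 4.0.16 (filterByExpr, TMM, quasi-likelihood test, genotype only) in R 4.3.3, with Benjamini-Hochberg adjustment over 15720 genes and a threshold of 0.01. CPM are TMM-scaled. The code was tested on simulated data. Total counts per library ranged between 9807865 and 20833491. On these totals, before TMM scaling, 3 counts equal 0.151 to 0.165 CPM in MZsmad4a and 0.144 to 0.306 CPM in WT libraries. This limit covers counting error only. The alternatives were DESeq2 1.42.0, limma 3.58.1 on log2 TPM, other scalings and filters, a replicate block and leaving out each library.

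The text names the 8 Smad genes, 3 other Smads, the most abundant gene of each regulator list with any past the threshold, the 3 nearest profiles of each member that passed it, and markers that passed it or stood at 0. Members, lists and tests were chosen with earlier results of these data known. Where zebrafish copies share a name in the gene table, the name is given in capitals and its copy is not resolved. In the lists, usp9, usp15, mylpfa and hbbe1.1 matched no identifier. No coordinates or sequences are given, since the annotation at hand, RefSeq on GRCz12tu, is of another assembly; it served for gene names and for which genes neighbour each other or share a chromosome.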

Additional observations from a re-analysis of the deposited data

How the results depend on the processing

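Over the Smad genes and their comparisons, alternative settings gave 10 lost calls, 8 changes of sign and 10 values that moved, which means a share by over 1 SD between replicates or a count by over 1.5 times, so that a count of 2 in place of 3 is not among them; 213 values did none of these. With the replicate number as a block, smad1 stood at −3.39 (adjusted p = 0.0179 by edgeR) and smad7 at −1.45 (adjusted p = 0.0259), which left 1 of the 8 genes, smad4a, called lower. Same-numbered MZsmad4a and WT libraries deviated together with r of 0.108, −0.0319 and 0.14 over genes, and not every library correlated best with its own number, so the numbers were not taken as pairs. Leaving out one library each time gave 1 to 3 members lower, smad1 at −3.71 to −3.12, smad7 at −1.55 to −1.39, smad4b at −0.66 to 0.02 and smad2 at −0.05 to 0.13. smad2 turned to −0.09 with library size alone, −0.11 on log2(TPM + 1) and −0.12 on log2(TPM + 0.1), and the marker krt18a.1 to −0.01, −0.02 and −0.02. In percentage points, the co-Smad share difference of −9.03 became −10.4 with CPM in place of TPM and −7.95 with smad9, smad6a and smad6b added, the inhibitory share difference of −5.43 became −4.02 and −7.60, and with CPM the BMP R-Smad difference of 12.1 became 9.35 and the Nodal R-Smad difference of 2.38 became 5.10. Over all genes, edgeR called 77 lower and 35 higher, and the block 22 and 7. DESeq2 called 343 and 315 of 24986 genes with any count, whether or not it gave them an adjusted p. Without a filter on low counts edgeR called 167 and 116, and with at least 10 counts in every library 43 and 21. For limma on log2(TPM + 0.1) the counts were 94 and 24. The cause was not tested. smad3b could not be tested with at least 10 counts in every library.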
